A study of Bos taurus with 9 samples.

Results

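The insulin-like growth factor (IGF) family was examined as 10 genes, chosen by their symbols in the deposited count table of 30641 genes: the ligands IGF1 and IGF2, the receptors IGF1R and IGF2R, and the binding proteins IGFBP1 to IGFBP6. All 10 symbols were found, and 8 had enough counts to be tested. IGF1 was too low to test and IGFBP1 had 0 counts in every library. The cells were bovine and carry the label endometrial epithelial; they were kept in a growth medium for bovine endometrial cells, and 9 RNA-seq libraries were made, 3 per group. For the DPPA3 mRNA group, 500 ng of in vitro produced mRNA of DPPA3, a maternal and germ line factor, was transfected with the reagent jetMESSENGER 24 hours after seeding. The reagent alone group had jetMESSENGER only, at that same time, and the untreated control had no reagent and no mRNA. No group received another mRNA, so an effect of the DPPA3 sequence and one of any transfected mRNA cannot be told apart. The sources used here do not give the animal of origin or the passage.

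IGF1 and IGF2 are small secreted growth factors that signal through IGF1R, a receptor tyrosine kinase that drives the PI3K and AKT pathway. IGF2R, the cation-independent mannose 6-phosphate receptor, takes up IGF2 for breakdown in lysosomes and does not carry a kinase. The binding proteins hold IGFs in the extracellular fluid and matrix, and proteases that cut them set the ligand free. In the ruminant uterus the IGFs and their binding proteins are part of the secretions that reach the conceptus, and IGFBP1 is known in cattle and sheep as an endometrial gene of early pregnancy.

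Total counts ranged from 3890134 to 13258036 per library, lowest in reagent alone replicate 1. The transfected transcript checked the label of the DPPA3 mRNA group. DPPA3 had 126334, 213790 and 213192 counts in the DPPA3 mRNA libraries, 0 in every reagent alone library and 0, 2 and 1 in the untreated controls. It cannot separate reagent alone from untreated control, and it does not check the replicate numbers. Of 14 epithelial markers, 8 had enough counts to be tested. The keratins KRT7, KRT8, KRT18 and KRT19 were present, KRT8 at a normalised read count of 4262 ± 246 CPM (SD, n = 3) with DPPA3 mRNA, 4067 ± 264 with reagent alone and 4451 ± 493 in untreated control; CPM are counts scaled to a common library size. CDH1, another epithelial gene, measured 56.0 ± 3.77 CPM with DPPA3 mRNA, 49.9 ± 11 with reagent alone and 49.5 ± 4.09 in untreated control. OCLN, ELF3 and MUC1 were also tested, with 1054, 235 and 165 counts over all libraries. The epithelial genes EPCAM, CLDN3, CLDN4, CLDN7 and ESRP1 had at most 15 counts in each library, and GRHL2 had 0 counts. All 14 stromal markers were tested, but their counts over all libraries were mixed. THY1 had only 58, PDGFRB 1001, PDGFRA 3077 and LUM 3646. VIM had 135205, COL1A1 932812 and COL1A2 1228939. COL1A1 measured 9805 ± 1345 CPM with DPPA3 mRNA, 9303 ± 1548 with reagent alone and 13120 ± 5031 in untreated control. The markers, mixed in both lists, thus go partly against the label of epithelial cells. In such bulk RNA, fewer cells of a type and less RNA per cell cannot be told apart. Nothing in the labels says that replicates were separate cultures or animals, and the p-values therefore cover just the spread among these libraries, which can be technical.

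None of the 8 tested genes passed the test in any of the 3 comparisons. The fitted fold changes were at most 1.34-fold in either direction, and the groups of every tested member overlapped. IGF2 and IGFBP3 were instead lowest in replicate 1 of every group. They passed a test of the replicate number that was chosen after these values were seen, and both calls depended on single libraries. IGF1, close to the detection limit, had more counts with DPPA3 mRNA than in untreated control. The values follow by role.

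**Figure D1:**
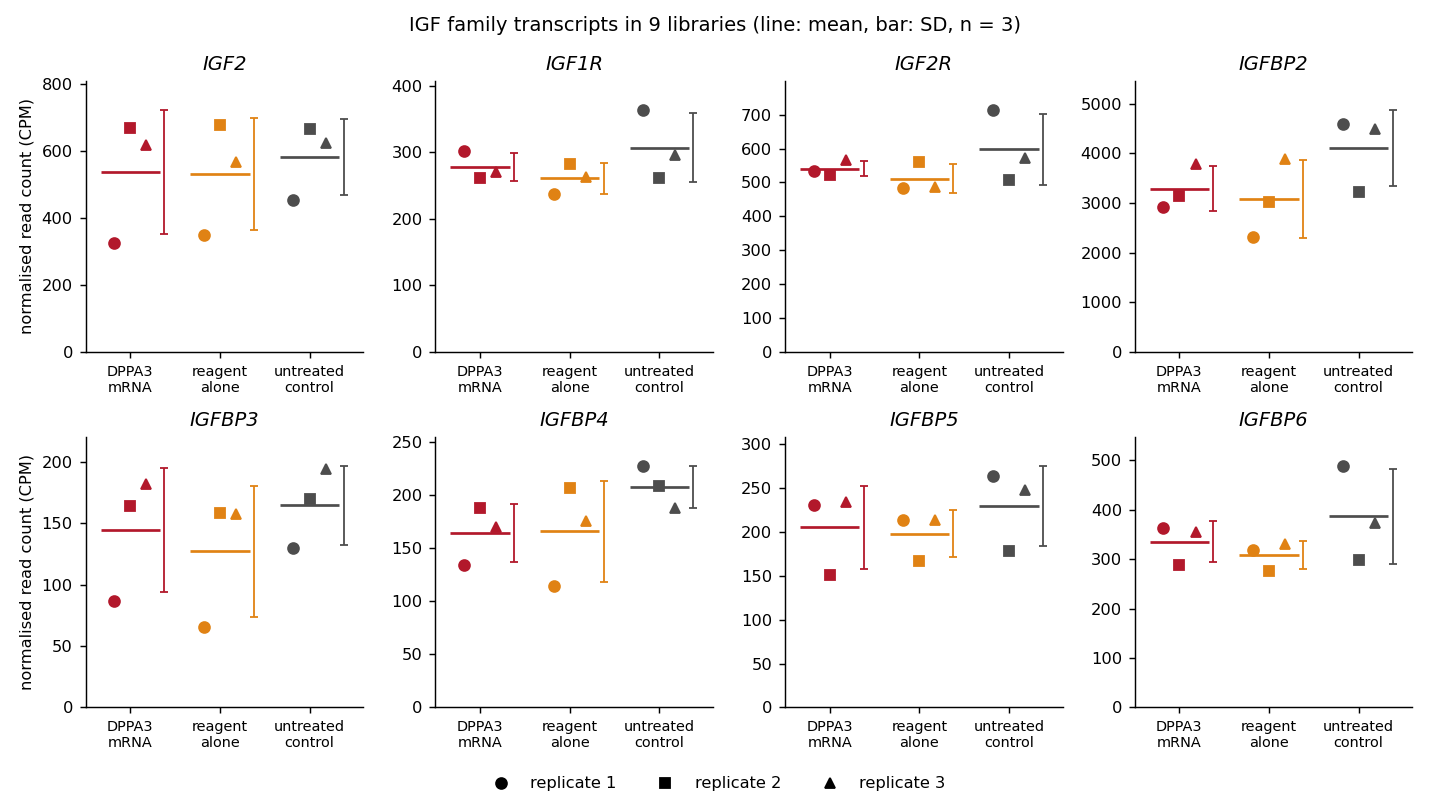
Normalised read counts (CPM, vertical axes from 0) of the 8 tested IGF family genes in each library, by group; symbols mark the replicate number, lines the mean and bars the SD (n = 3). In every panel the libraries of the 3 groups overlap, and for IGF2 and IGFBP3 replicate 1 is the lowest library of each group.

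Among the ligands, IGF2 was expressed in all libraries. Replicates 1, 2 and 3 measured 325, 669 and 619 CPM with DPPA3 mRNA, 351, 678 and 567 with reagent alone and 453, 667 and 626 in untreated control. Replicate 1 was the low library of each group, and the group means of 538 ± 186, 532 ± 167 and 582 ± 113 CPM (SD, n = 3) lay within that spread. The log2 fold change of DPPA3 mRNA over reagent alone was 0.01, with a 95% interval of -0.58 to 0.61 (SE 0.28). H19, the imprinted noncoding gene of the IGF2 region in mammals, measured 415 ± 94.2 CPM with DPPA3 mRNA, 446 ± 85.8 with reagent alone and 472 ± 82.8 in untreated control. Both genes were highest in replicate 2 of the groups that received the reagent, but in untreated control replicate 1, where IGF2 was lowest of its group, H19 was highest of its group at 546 CPM.

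IGF1 was near the detection limit. It had 9, 13 and 8 counts in the DPPA3 mRNA libraries, 1, 12 and 0 with reagent alone and 1, 1 and 1 in untreated control. A count of 0 allows up to 3 counts, or 0.226 to 0.747 CPM depending on the library, and all 3 untreated control libraries lay under that limit. Each DPPA3 mRNA library lay above each untreated control library, as did 3.88% of all genes with a count. The reagent alone libraries overlapped with both other groups, where groups lay apart for 4.31% of genes (DPPA3 mRNA above reagent alone) and for 5.27% (reagent alone above untreated control). Of the 13 counts with reagent alone, 12 came from replicate 2. Over the pooled counts, 30 against 3, the ratio of DPPA3 mRNA to untreated control was 7.11 with an exact 95% interval of 2.21 to 36.4. Against reagent alone, 30 counts to 13, it was 1.78 (0.901 to 3.72). The ratio of reagent alone to untreated control, 13 counts to 3, was 3.99 (1.1 to 21.9). These intervals cover counting error only, not the spread between libraries. In edgeR's quasi-likelihood test with no filter on low counts, IGF1 had a Benjamini-Hochberg adjusted p of 0.863 for DPPA3 mRNA against untreated control (log2 fold change 2.71, SE 1.44) and of 1 against reagent alone.

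The signalling receptor IGF1R measured 302, 261 and 270 CPM in replicates 1, 2 and 3 with DPPA3 mRNA, 237, 282 and 263 with reagent alone and 364, 261 and 296 in untreated control. The clearance receptor IGF2R measured 533, 523 and 566 CPM with DPPA3 mRNA, 485, 562 and 488 with reagent alone and 714, 507 and 572 in untreated control. For both receptors untreated control replicate 1 was the highest of the 9 libraries, and the remaining libraries of the 3 groups were mixed. Untreated control replicate 1 is also the library with the smallest scaling factor (0.856, against 1.001 to 1.051 in the others). On library totals without these factors it was still the highest library for both receptors. It then measured 310.8 CPM for IGF1R, with DPPA3 mRNA replicate 1 next at 302.1. For IGF2R it measured 610.1 CPM, with untreated control replicate 3 next at 577. INSR, the insulin receptor that can pair with IGF1R, measured 36.4 ± 4.11 CPM with DPPA3 mRNA, 41.2 ± 2.77 with reagent alone and 40.4 ± 5.76 in untreated control.

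IGFBP2, which in mammals carries an integrin-binding motif beside its IGF-binding domains, measured 2926, 3138 and 3796 CPM with DPPA3 mRNA, 2318, 3022 and 3886 with reagent alone and 4597, 3224 and 4502 in untreated control. The low library was reagent alone replicate 1, and untreated control replicate 2 lay among the treated libraries. The log2 fold change over untreated control was -0.32 with DPPA3 mRNA (SE 0.20) and -0.42 with reagent alone (SE 0.20, 95% interval -0.84 to 0.0034).

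IGFBP3, the main carrier of IGFs in blood, had the highest biological coefficient of variation of the 8 tested genes. It measured 86.8, 165 and 182 CPM with DPPA3 mRNA, 65.7, 158 and 158 with reagent alone and 130, 170 and 194 in untreated control. Replicate 1 was the lowest of each group, as for IGF2. The coefficient fitted by edgeR for IGFBP3 was 0.28, which was 1.53 times the value for genes of its level, and for IGF2 it was 0.25, or 1.35 times.

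IGFBP4, known mainly as an inhibitor of IGF action, measured 135, 188 and 170 CPM with DPPA3 mRNA, 114, 207 and 176 with reagent alone and 227, 208 and 187 in untreated control. Both low libraries were replicate 1 of the groups that received the reagent, while replicate 1 was the high library of the untreated control. IGFBP5, which binds to the extracellular matrix, measured 231, 151 and 234 CPM with DPPA3 mRNA, 214, 167 and 213 with reagent alone and 264, 178 and 248 in untreated control. Here replicate 2 was the low library of each group.

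IGFBP6, which prefers IGF2 to IGF1, measured 364, 288 and 355 CPM with DPPA3 mRNA, 319, 276 and 330 with reagent alone and 490, 299 and 373 in untreated control. Replicate 2 was again the lowest of each group. For IGFBP1, 0 counts over all libraries allow a pooled level of up to 0.0335 CPM, set by 3 counts over the scaled total. In the RefSeq table of the assembly ARS-UCD2.0, IGFBP1 neighbours IGFBP3, and IGFBP2 neighbours IGFBP5, so that of these 2 adjacent pairs one had a member with 0 counts and the other had counts of both members.

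Setting DPPA3 mRNA against reagent alone measured what the mRNA added in cells that all received the reagent. The quasi-likelihood test of edgeR was adjusted over all genes by Benjamini-Hochberg. By it 0 of the 8 tested IGF genes passed, and 0.00672% of all genes did, DPPA3 being the only one. At an unadjusted p under 0.05 the number was also 0, where all genes gave 1.67%, and the DESeq2 Wald test called 0 at either threshold. The log2 fold changes ran from -0.02 for IGFBP4 to 0.17 for IGFBP3, with a median of 0.09 over the 8 genes and 0.0027 over all genes. That median was -0.023 without DPPA3 mRNA replicate 3 and -0.023 without reagent alone replicate 1. The 95% intervals come from the fit with group as the only term and bound how large a difference could be. The widest was that of IGFBP3, -0.51 to 0.86, and the narrowest that of IGF2R, -0.24 to 0.40. No member had groups apart, against 4.91% of all genes higher without overlap and 3.99% lower. The genes of the interferon response, a list of 10 of which 9 were tested, had summed levels of 102 to 1828 CPM with DPPA3 mRNA and 22.2 to 67.4 with reagent alone. Replicate 2 had the highest sum, 1828 CPM with DPPA3 mRNA against 30.5 with reagent alone, and there the ratios of the 8 IGF genes between these groups ran from 0.904 to 1.04. In replicate 1, with sums of 102 and 22.2 CPM, the ratios ran from 0.926 for IGF2 to 1.32 for IGFBP3. In replicate 3, with sums of 294 and 67.4 CPM, they ran from 0.965 for IGFBP4 to 1.16, reached by IGF2R and IGFBP3. The part of the interferon response was not tested.

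DPPA3 mRNA against untreated control measured mRNA and reagent together. There 0 of 8 genes passed by edgeR (smallest adjusted p 0.852), against 0.0134% of all genes, namely DPPA3 and IFITM1. At an unadjusted p under 0.05 the number was 0, against 3.91% of all genes, and DESeq2 called 0 at either threshold. No member had groups apart, as 4.24% of all genes had with higher and 3.86% with lower values. Compared within replicate numbers, 6 of the 8 (75%) were lower with DPPA3 mRNA in all 3 numbers, against 17.5% of all genes. The exceptions were IGF2 and IGF2R, and IGF1R was nearly level in number 2, at 261.1 against 261.2 CPM. The ratios of the 8 genes ran from 0.592 to 0.873 in number 1, 0.849 to 1.03 in number 2 and 0.843 to 0.99 in number 3. All 8 log2 fold changes were negative, from -0.34 for IGFBP4 to -0.11 for IGF2, with a median of -0.18, while 50.2% of all genes had a positive one and their median was 0.0017. The members did not vary independently. Pearson correlations of their log2 CPM over the 9 libraries ran from -0.495 (IGF2 and IGFBP5) to 0.92 (IGF2 and IGFBP3). Counts of members are therefore not counts of independent observations. Without untreated control replicate 1 the median was -0.14, 5 of the 8 were negative, and the values of IGF1R, IGF2R and IGFBP6 were 0.0028, 0.01 and 0.0058. The median was -0.28 without untreated control replicate 2 and -0.064 without replicate 1 of all groups, and 6 and 7 of the 8 were negative without DPPA3 mRNA replicates 1 and 2. With the replicate number as a block, IGFBP2 (log2 fold change -0.33, unadjusted p 0.0395) and IGFBP4 (-0.37, 0.0473) reached an unadjusted p under 0.05, both with an adjusted p of 0.524 by edgeR; in that fit 9.35% of all genes had an unadjusted p under 0.05.

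For reagent alone against untreated control, the effect of the reagent, 0 of 8 genes passed by edgeR (smallest adjusted p 0.466), and 0% of all genes passed. An unadjusted p under 0.05 was found for 0 of the 8 and for 10.2% of all genes, and DESeq2 called 0 of the 8 at either threshold. No member had groups apart, against 6.92% of all genes higher and 7.21% lower. Within replicate numbers, IGFBP2 to IGFBP6, or 5 of 8 (62.5%), were lower with reagent alone in all 3 numbers, against 19.4% of all genes. The 8 log2 fold changes were again all negative, with a median of -0.28 and a median over all genes of -0.0099. They ran from -0.13 for IGF2 to -0.42 for IGFBP2. This comparison shares its control libraries with the preceding one, so the shared direction is not a repeat of it. Here too the counts of members are not counts of independent observations. The median was -0.18 without untreated control replicate 1 and -0.18 without reagent alone replicate 1, the shallowest library, where 7 of the 8 were negative. When replicate 1 of all groups was left out it was -0.089. With the replicate number as a block, IGFBP2 (log2 fold change -0.44, unadjusted p 0.00968), IGFBP3 (-0.45, 0.0125) and IGFBP6 (-0.30, 0.0305) reached an unadjusted p under 0.05, with adjusted p of 0.192, 0.194 and 0.222 by edgeR, where 19.6% of all genes did. Without untreated control replicate 2, when IGF1 also had enough counts, 4 of 9 members had an unadjusted p under 0.05, against 27.1% of all genes, and 0 passed. Within single replicate numbers the ratio of IGFBP2 in reagent alone to untreated control was 0.504, 0.937 and 0.863 for numbers 1, 2 and 3, and that of IGFBP4 was 0.503, 0.993 and 0.938. In both genes the ratio of replicate 1 lay farthest from 1.

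**Figure D2:**
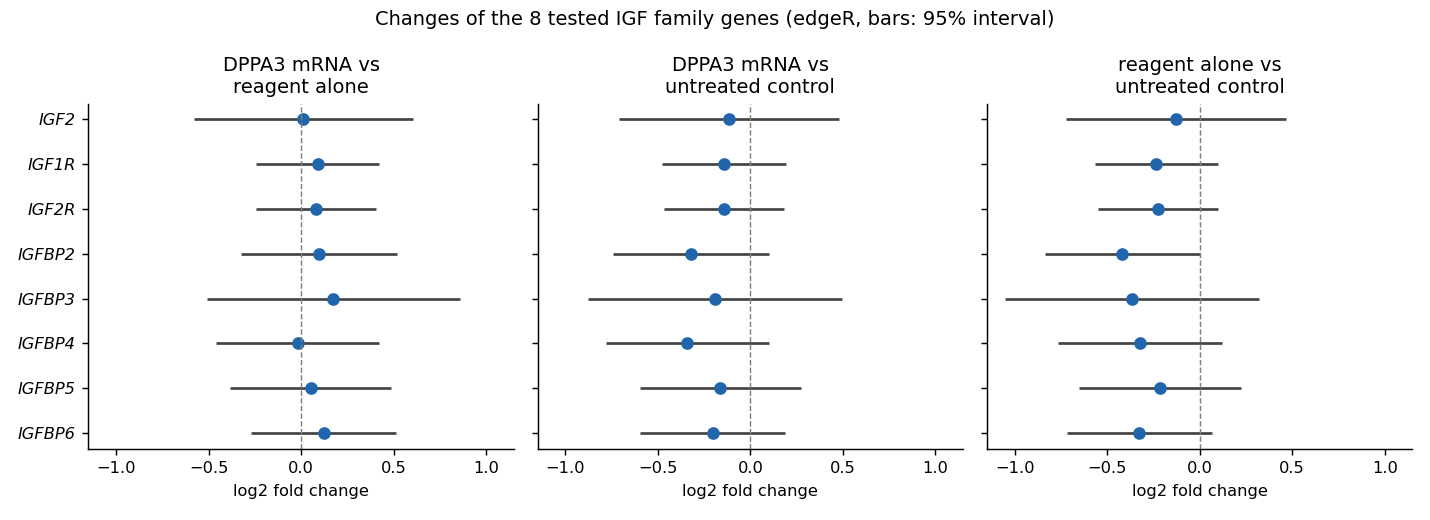
Log2 fold change (horizontal axis) of each tested IGF family gene in the 3 comparisons, by edgeR; bars are 95% intervals. Every interval includes 0 in this fit, which has group as the only term and no pairs. In both comparisons with untreated control all 8 points lie left of 0, with the same 3 control libraries behind each.

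For 4 of the 8 genes, replicates with the same number resembled each other across groups. In a description of log2 CPM over the 9 libraries, the replicate number took 89.9% of the sum of squares of IGF2, 83.4% of IGFBP5, 75.7% of IGFBP3 and 55.6% of IGFBP6, with a median of 31.7% over all genes. The group took 3.87%, 12%, 14.4% and 27.8% of those genes, with a median of 25.6%. The receptors IGF1R and IGF2R had 13.2% and 7.37% with the replicate number and 30.8% and 30% with the group.

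**Figure D3:**
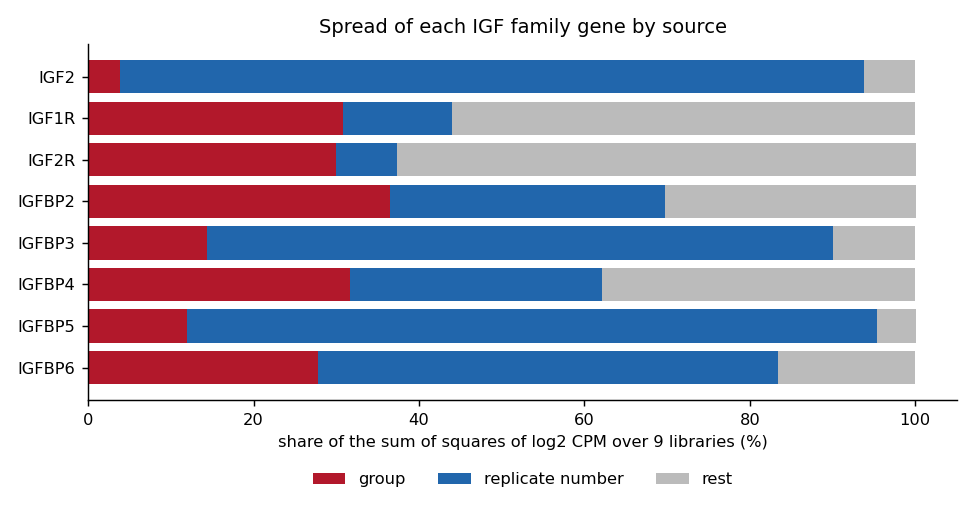
Share (%) of the sum of squares of log2 CPM over 9 libraries taken by the group, by the replicate number and by the rest, for each tested IGF family gene. The replicate number takes 89.9% for IGF2 and 7.37% for IGF2R.

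A test of the replicate number was chosen after these values were seen, as an F test in an edgeR fit with terms for group and replicate number. IGF2 passed (adjusted p 0.00962 by edgeR) and so did IGFBP3 (0.0181), which were 2 of 8 members, against 1.47% of all genes. The log2 CPM of these 2 genes correlated over the 9 libraries (Pearson r = 0.92), so their calls are not independent. IGF2 was lower in replicate 1 than in the mean of the others by a log2 difference of -0.77 (SE 0.11), and IGFBP3 by -0.90 (SE 0.14). In each of the 3 groups replicate 1 was the lowest library for both genes. IGFBP5 (adjusted p 0.0624) and IGFBP6 (0.157) did not pass; their log2 differences between replicate 2 and the mean of the others were -0.50 (SE 0.10) and -0.36 (SE 0.11). The labels do not say what the number marks.

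These calls depended on single libraries. When single libraries were left out, IGF2 passed in 6 of 9 fits and IGFBP3 in 4 of 9. By edgeR, the adjusted p of IGF2 was 0.125 when DPPA3 mRNA replicate 1 was left out, 0.0508 without replicate 2 of that group and 0.0512 without untreated control replicate 3. That of IGFBP3 was 0.16, 0.0525 and 0.0751 without DPPA3 mRNA replicates 1, 2 and 3, and 0.0678 and 0.0749 without replicate 3 of reagent alone and of untreated control. Without untreated control replicate 1, edgeR gave 4.84e-05 for IGF2 and 4.24e-05 for IGFBP3. Of the members 5 passed without it, where 660 of all genes did, against 219 with all 9 libraries kept. IGFBP5 passed without that library (edgeR adjusted p 0.0079) and without reagent alone replicate 1 (0.0276).

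**Figure D4:**
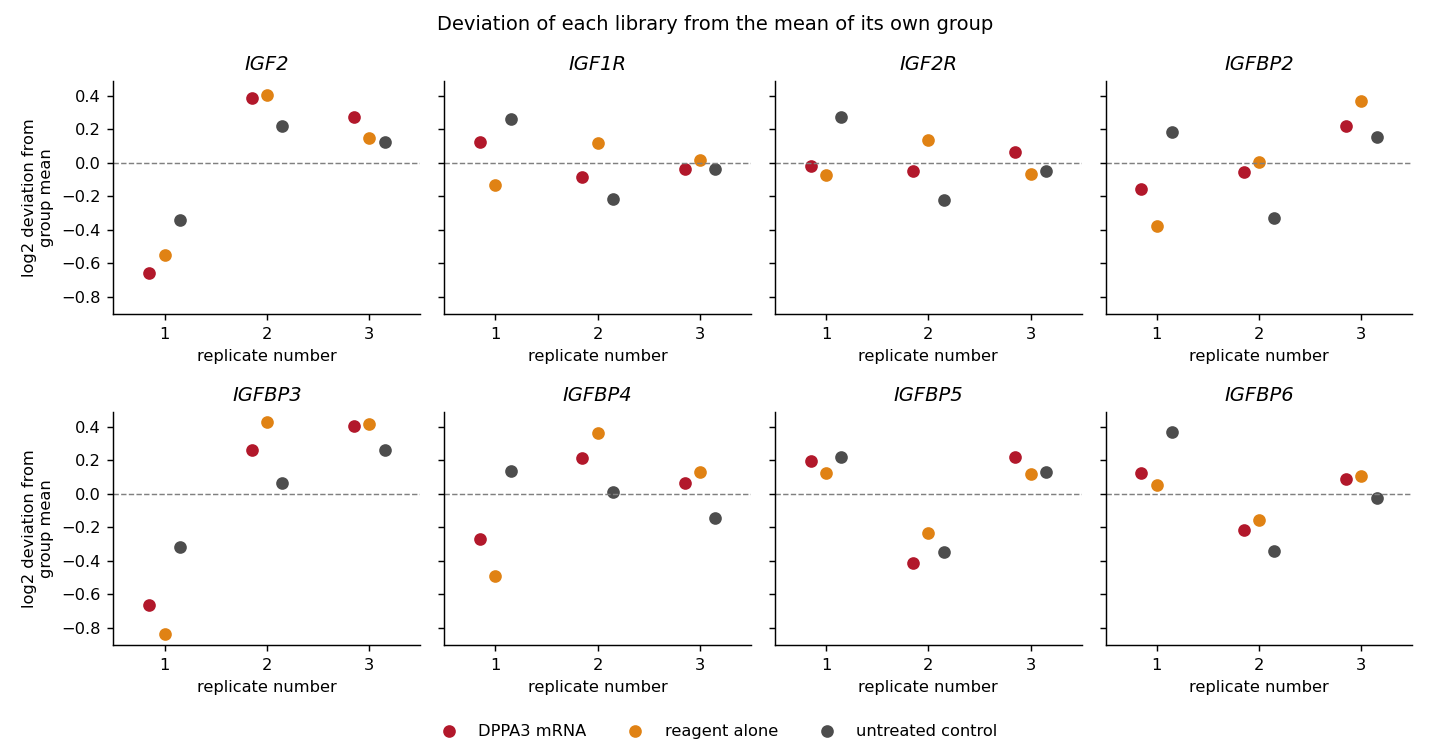
Log2 deviation of each library from the mean of its own group (vertical axis) by replicate number (horizontal axis), for the 8 tested IGF family genes; colours mark the groups. IGF2 and IGFBP3 lie below 0 in replicate 1 of all 3 groups, and IGFBP5 and IGFBP6 lie below 0 in replicate 2 of all 3 groups.

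Of the 14 stromal markers 4 passed the same test of the replicate number and 10 did not, and of 8 tested epithelial markers 0 passed, against 1.47% of all genes. The 4 did not share a direction. ACTA2, the smooth muscle actin, was higher in replicate 1 than in the others by a log2 difference of 0.76 (edgeR adjusted p 0.00451). The same held for DES at 1.09 (0.0162) and TAGLN at 0.56 (0.0308), whereas POSTN was lower in replicate 1 by a log2 difference of -1.05 (0.0204). The summed level of the stromal list ranged from 30720 to 36460 CPM with DPPA3 mRNA, 29470 to 37700 with reagent alone and 31660 to 48050 in untreated control. That of the epithelial list ranged from 8806 to 9807, 8617 to 8955 and 8941 to 11070 CPM in the same order of groups. The stromal sum rests mainly on collagens. In untreated control replicate 1, with a sum of 48050 CPM, COL1A1, COL1A2 and COL3A1 measured 18920, 15350 and 10230 CPM. The mean log2 CPM of the stromal list was highest in reagent alone replicate 1, at 8.088, where the sum was 30890 CPM. The part of cell makeup in the levels of IGF2 and IGFBP3 was not tested.

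The genes whose pattern was most like that of a member were looked up for the 3 members with the highest mean CPM, by Pearson correlation of log2 CPM over the 9 libraries among 10442 genes. For IGF2 these were HCN4 (r = 0.98), THBD (0.98) and CHRNA3_1 as the table spells it (0.97). HCN4, a channel of pacemaker cells, measured 207, 414 and 358 CPM with DPPA3 mRNA, 230, 456 and 377 with reagent alone and 326, 434 and 420 in untreated control, so replicate 1 was its lowest library in each group too. For IGFBP2 they were DNMBP (0.99), MGAT4B (0.97) and WDR62 (0.97), and for IGF2R they were AKAP13 (0.98), PKD1 (0.97) and PDGFB (0.97). These libraries share the groups and replicate numbers, and the genes were picked as the highest of many.

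Proteases and partners of the binding proteins were followed from a list of 48 pathway genes, of which 39 were tested. PAPPA, a metalloprotease that cuts IGFBP4 and IGFBP5, measured 33.1, 25.2 and 17.0 CPM with DPPA3 mRNA, 37.9, 27.3 and 13.3 with reagent alone and 25.62, 20.03 and 19.56 in untreated control. It was highest in replicate 1 of each group and lowest in replicate 3, and did not pass the test of the replicate number (edgeR adjusted p 0.0885). Its inhibitor STC2 measured 4.12 ± 0.33 CPM with DPPA3 mRNA, 4.64 ± 1.23 with reagent alone and 4.63 ± 0.54 in untreated control. The related PAPPA2 and STC1 were too low to test, with 60 and 5 counts over all libraries.

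HTRA1, a secreted serine protease that also cuts binding proteins, did not pass in any comparison. It measured 846 ± 41.5 CPM with DPPA3 mRNA, 839 ± 8.67 with reagent alone and 925 ± 124 in untreated control (SD, n = 3), and the 95% interval of its log2 fold change over reagent alone was -0.28 to 0.30. IGFBP7, a related secreted protein with low affinity for IGFs, measured 976, 889 and 971 CPM with DPPA3 mRNA, 694, 862 and 863 with reagent alone and 1453, 866 and 947 in untreated control. It was one of 2 pathway genes whose DPPA3 mRNA libraries all lay above those of reagent alone, against 4.91% of all genes.

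Downstream of the receptors, 0 of the 39 tested pathway genes passed in any comparison by edgeR, and DESeq2 called 0 as well. Against reagent alone, 0 had an unadjusted p under 0.05. Among the smallest were those of PIK3CA, IGFBP7 and GSK3B, with log2 fold changes of -0.32, 0.23 and -0.18 and an edgeR adjusted p of 1 for each. The adaptor IRS1 measured 202 ± 28.9 CPM with DPPA3 mRNA, 191 ± 27.3 with reagent alone and 230 ± 71.0 in untreated control, and IRS2 measured 17.6 ± 1.06, 18.2 ± 4.35 and 20.4 ± 6.37 CPM in the same order.

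For DPPA3 mRNA against untreated control, 2 of the 39 pathway genes (5.13%) had an unadjusted p under 0.05, against 3.91% of all genes. They were AKT2 and PIK3R2, a kinase and a regulatory subunit of PI3K. AKT2 measured 119, 96.3 and 111 CPM with DPPA3 mRNA, against 193, 114 and 142 in untreated control (log2 fold change -0.46, SE 0.18, edgeR adjusted p 0.852). PIK3R2 measured 52.5, 55.0 and 54.1 CPM with DPPA3 mRNA, against 95.2, 58.4 and 63.2 in untreated control (-0.42, SE 0.19, adjusted p 0.852). In both, untreated control replicate 1 stood highest. PDPK1 and RHEB completed the 4 with the smallest p, at log2 fold changes of -0.27 and 0.53. The median over the 39 genes was -0.14, and -0.015 without untreated control replicate 1. Groups were apart for 2 pathway genes that were higher and 3 that were lower, against 4.24% and 3.86% of all genes.

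For reagent alone against untreated control, 5 of the 39 (12.8%) had an unadjusted p under 0.05, against 10.2% of all genes. The catalytic PI3K subunit PIK3CA measured 74.5, 70.8 and 58.1 CPM with reagent alone, against 31.4, 56.8 and 46.7 in untreated control (log2 fold change 0.58, SE 0.22, edgeR adjusted p 0.466). The log2 fold changes of RHEB and RICTOR were 0.70 and 0.69 and that of IGFBP7 was -0.43, each with an adjusted p of 0.466. Untreated control replicate 1 was the lowest of the 9 libraries for PIK3CA, RHEB and RICTOR, and the highest for IGFBP7. Groups were apart for 3 pathway genes that were higher and 4 that were lower, against 6.92% and 7.21% of all genes. For the replicate number, 1 of the 39 passed, or 2.56%, against 1.47% of all genes. It was FOXO4 (edgeR adjusted p 1.99e-05), lower in replicate 1 than in the mean of the others by a log2 difference of -1.77 (SE 0.11). That difference was larger than those of IGF2 and IGFBP3.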

How the data were processed

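The authors deposited raw read counts per gene symbol, used here as deposited. Trimmomatic, HISAT2, HTSeq and edgeR are listed, per the submitters' processing notes; the sources used here give no versions, genome build, annotation or strand setting; coordinates are therefore left out, and antisense or overlapping transcripts cannot be told apart. RNA was extracted with TRIzol and libraries were made with the IDT xGen kit, per the labels. No transcript lengths were at hand, so levels are not compared between genes. Of 30641 symbols, 24552 matched a RefSeq table of ARS-UCD2.0, used for names and neighbours.

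The filter filterByExpr kept 14874 genes. All 9 libraries were fitted together with edgeR 4.0.16 in R 4.3.3 (TMM factors, quasi-likelihood F test, group as the only term), and a call is an adjusted p (Benjamini-Hochberg, all 14874 genes) below 0.05. CPM use the TMM-scaled totals of these genes, and log2 CPM a prior count of 2. SE is the log2 fold change over the square root of F. IGF1 ratios of pooled counts have exact conditional intervals. The floor for 0 was 3 counts. No replicates were duplicates by a chi-square per degree of freedom, which was 14.4 or more for each pair. Scripts were tested on simulated data.

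Libraries with the same replicate number in DPPA3 mRNA and untreated control deviated together from their group means (correlations of 0.34, 0.32 and 0.12, all over 0.1). On that ground, and not by the labels, the numbers count as pairs. Replicate 3 correlated at only 0.086 for DPPA3 mRNA and reagent alone, and at 0.093 for reagent alone and untreated control. The main fit and its intervals do not use the pairs, which the replicate block does. With the block the SE of IGFBP3 for reagent alone over untreated control was 0.156, against 0.319 in the main fit.

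Each result was also computed with the Wald test of DESeq2 1.42.0, its size factors in edgeR and all genes with a count. Further settings were a replicate block, a fit of the 6 libraries of each comparison and each library left out. Another left DPPA3 out of the library sizes and of the genes tested. Library totals without TMM factors, replicate 1 of all groups left out together, and the test of the replicate number were added after the data were seen. The members and lists were chosen with earlier results of these data known. The text names all members, the 4 pathway genes with the smallest p per comparison (1 of them is not reported here), and PAPPA, PAPPA2, STC1, STC2, HTRA1, INSR, IRS1 and IRS2. H19, FOXO4 and the markers named beside the replicate number were chosen after their values were seen. Of the remaining lists, 3 of 6 endothelial and 3 of 6 immune markers were tested, with summed levels of at most 12.7 and 8.44 CPM per library.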

Additional observations from a re-analysis of the deposited data

How the results depend on the processing

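No IGF family or pathway gene passed the test of a group comparison under any alternative. For DPPA3 mRNA against untreated control, members with an unadjusted p under 0.05 numbered 2 with the replicate block, against 9.35% of all genes. Without single libraries they numbered 0 to 1. The 1 came without untreated control replicate 2 (18.7% of all genes) or reagent alone replicate 3 (3.08%). For reagent alone against untreated control they numbered 1 with no filter (11.4% of all genes) and 3 with the replicate block (19.6%). Without single libraries they numbered 0 to 4, the 4 without untreated control replicate 2 (27.1% of all genes). They numbered 2 without reagent alone replicate 3 (7.52%) and 1 without reagent alone replicate 2 (5.31%). The block changed no other call of a member. For DPPA3 mRNA and reagent alone, libraries with the same number correlated at 0.14, 0.12 and 0.086, and for reagent alone and untreated control at 0.15, 0.14 and 0.093. Each library had its highest correlation with its own number, which comes from the data and is not stated by the design.

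Over all genes, DPPA3 mRNA against reagent alone gave 1 call, that of DPPA3. It gave 66 with no filter, 9 with DESeq2, 2 with the replicate block and 0 with DPPA3 left out. In that last setting DPPA3 was also taken out of the genes tested, so the loss of its call was fixed beforehand. Without replicate 1 of all groups the comparison gave 8 calls, and 1 to 20 without single libraries. DPPA3 mRNA against untreated control gave 2, against 69, 10, 7, 0, 13 and 1 to 26 in the same order, and 1 on library totals; the 20 and the 26 came without DPPA3 mRNA replicate 1. Reagent alone against untreated control gave 0, against 18 with no filter, 2 with DESeq2, 1 without replicate 1 of all groups and 0 to 1 without single libraries. With DPPA3 left out, DPPA3 mRNA against untreated control also lost IFITM1, whose edgeR adjusted p was 0.0372 with DPPA3 kept. IFITM1 then had rank 2 by p, after DPPA3, and the Benjamini-Hochberg adjustment depends on that rank. The cause of the other differences was not tested. Library totals moved the median of all genes for reagent alone against untreated control to 0.089 and that of the IGF family to -0.16.

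The replicate number was called for 219 genes, and for 1615 with no filter, 115 on library totals and 35 (without DPPA3 mRNA replicate 1) to 960 (without reagent alone replicate 1) when single libraries were left out. Members called were 4 with no filter and 0 to 5 without single libraries. The 5 came without untreated control replicate 1, where 660 genes were called.

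Of 918 recomputed log2 fold changes 48 changed sign, none of them a call. Without single libraries, DPPA3 mRNA over reagent alone ranged from -0.21 to 0.27 for IGF2, -0.072 to 0.30 for IGFBP2, -0.13 to 0.43 for IGFBP3, -0.22 to 0.17 for IGFBP4, -0.057 to 0.23 for IGFBP5, -0.026 to 0.049 for HTRA1, -0.37 to 0.31 for PAPPA, -0.34 to 0.023 for STC2, -0.045 to 0.20 for IRS1 and -0.16 to 0.17 for IRS2. DPPA3 mRNA over untreated control ranged from -0.30 to 0.15 for IGF2, -0.24 to 0.0028 for IGF1R, -0.25 to 0.0103 for IGF2R, -0.39 to 0.073 for IGFBP3, -0.32 to 0.018 for IGFBP5, -0.36 to 0.0058 for IGFBP6, -0.35 to 0.095 for IRS1, -0.34 to 0.083 for IRS2 and -0.0396 to 0.43 for PAPPA. Reagent alone over untreated control ranged from -0.34 to 0.10 for IGF2, -0.026 to 0.15 for INSR, -0.43 to 0.02 for IRS1, -0.38 to 0.14 for IRS2, -0.19 to 0.17 for STC2 and -0.094 to 0.58 for PAPPA. On library totals IGF2 was -0.02 and HTRA1 -0.025 over reagent alone. Without replicate 1 of all groups, IGF1R was -0.043, IGFBP2 -0.00138, PAPPA 0.054 and HTRA1 -0.023 for DPPA3 mRNA over reagent alone, IGF2R was 0.019 and IRS2 0.048 over untreated control, and IRS2 was 0.22 for reagent alone over untreated control. IGF1, with 46 counts in all, is limited by depth.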
